A study of Mus musculus with 4 samples.

Results

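The genes described here are the nuclear-encoded members of the respiratory chain and ATP synthase, measured in cells sorted as CD4+ T cells from mouse liver. They were taken by symbol: *Nduf* genes of the a, b, c, s and v series with the assembly factors *Ndufaf1* to *Ndufaf8*, *Sdha* to *Sdhd*, *Uqcr* genes, *Cox4* to *Cox8* genes and *Atp5* genes. Of the 32285 genes in the tables, 94 symbols matched and 85 with at least 100 unique molecular identifiers (UMIs, 1 per RNA molecule captured) over both tables were kept. *Cox6a2* and the pseudogene symbol *Ndufb1-ps* were left out by name. The other 7 left out were under the minimum, and 4 of them (*Cox7b2*, *Cox8b*, *Cox8c* and *Ndufa4l2*) had 0 UMIs. Just outside the minimum lay *Cox6b2* with 83 UMIs and *Cox7a1* with 41, and the member with the fewest was *Ndufaf6* with 508. The members number 37 for complex I, 8 for its assembly, 4 for complex II, 8 for complex III, 11 for complex IV and 17 for complex V.

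Both groups were male mice on a choline-deficient, high-fat diet (CD, 60 kcal% fat, 0.1% methionine), which induces steatohepatitis, and the question was what loss of the nuclear receptors *Nr4a1* and *Nr4a2* in T cells does. One group was WT and the other was Nr4a1fl/fl Nr4a2fl/fl Cd4Cre (dKO), in which Cre recombinase is driven in T cells by *Cd4* regulatory sequence. Cells of 2 mice per group were pooled into 1 droplet library with a 5′ kit, so each genotype has 1 library and no replicate, and no test between genotypes was made. RNA and T cell receptors were sequenced from the same cells.

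The respiratory chain passes electrons from NADH (complex I) and succinate (complex II) through complex III and cytochrome c to oxygen at complex IV, and ATP synthase (complex V) uses the proton gradient this builds. Its proteins come from both genomes: most are encoded in the nucleus and imported, while 13 are encoded by mitochondrial DNA (mt genes) and made inside the organelle. Lymphocytes raise respiratory capacity when they leave quiescence and divide, and resting T cells rely largely on it for ATP.

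All 85 members lie on nuclear chromosomes of GRCm38 and span 19 different ones. Their loci run from 1205 to 155909 bases, with a median of 7456. An exon of 5 members (*Ndufb2*, *Ndufb8*, *Ndufb9*, *Atp5g2* and *Atp5o*) overlaps another annotated gene on the same strand, so part of their UMIs may belong to that neighbour or have been dropped.

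Promoter windows from RefSeq on GRCm38.p6, 250 bases before to 50 after the start, were matched for 71 members. Letters of 3 motifs named for factors known to bind such promoters were searched on both strands. The consensus of NRF1 was present in 29.6% of the 71 members and in 7% of the 27025 genes in the table. CCGGAAG (ETS type, the family of GABP) was present in 26.8% and 9.93%, and that of YY1 in 7.04% and 0.755%. At least 1 of the 3 was found in 54.9% of members and in 16% of all genes. A match describes letters and not a bound site. The upstream 250 bases of 4 members are printed 5′ to 3′ on the gene's strand because they come back below: *Cox5b*, *Sdhd* and *Cox6a1* were among the 5 members highest in cycling cells, and *Cox7a2l* was lower in the dKO-labelled library. Capitals mark a motif on either strand. *Sdhd* (chr9:50603850-50604099, minus strand) and *Cox6a1* (chr5:115348959-115349208, minus strand) each hold the NRF1-type and ETS-type letters. *Cox5b* (chr1:36691237-36691486, plus strand) and *Cox7a2l* (chr17:83514334-83514583, minus strand) hold none of the 3 in this stretch, nor do *Cox5a* and *Atp5g3*, the other members of those 5. Windows are set by the RefSeq start. In the annotation used for locus spans *Cox7a2l* begins further upstream, at 83517330, so its window lies within that locus, and the windows of *Cox5b* and *Cox6a1* overlap theirs at the edge.
Sdhd: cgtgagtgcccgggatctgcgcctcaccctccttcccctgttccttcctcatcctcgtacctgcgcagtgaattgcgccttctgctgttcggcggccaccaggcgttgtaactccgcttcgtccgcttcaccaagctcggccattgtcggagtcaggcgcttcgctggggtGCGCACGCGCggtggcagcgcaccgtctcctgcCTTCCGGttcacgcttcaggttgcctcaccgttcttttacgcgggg
Cox6a1: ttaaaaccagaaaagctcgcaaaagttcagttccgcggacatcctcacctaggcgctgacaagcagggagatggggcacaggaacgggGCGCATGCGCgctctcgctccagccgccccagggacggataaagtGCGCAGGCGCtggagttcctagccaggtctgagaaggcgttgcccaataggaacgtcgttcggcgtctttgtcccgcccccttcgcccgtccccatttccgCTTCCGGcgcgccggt
Cox5b: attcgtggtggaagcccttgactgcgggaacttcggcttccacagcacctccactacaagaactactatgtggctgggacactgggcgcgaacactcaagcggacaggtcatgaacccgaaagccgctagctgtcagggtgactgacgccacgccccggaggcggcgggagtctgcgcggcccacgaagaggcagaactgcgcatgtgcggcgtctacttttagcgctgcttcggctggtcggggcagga
Cox7a2l: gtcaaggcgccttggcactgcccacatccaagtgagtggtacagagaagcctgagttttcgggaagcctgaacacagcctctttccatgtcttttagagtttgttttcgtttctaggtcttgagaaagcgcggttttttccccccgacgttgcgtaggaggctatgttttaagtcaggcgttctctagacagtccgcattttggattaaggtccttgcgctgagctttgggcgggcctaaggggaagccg

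The tables hold 10602 cells with 23494155 UMIs for the WT-labelled library and 17645 cells with 37966611 UMIs for the dKO-labelled library, of which 10556 and 17462 cells were kept. Members took 1.85% and 2.1% of the UMIs. *Nr4a1* had 725 CPM (UMIs per 1000000 UMIs) in the WT-labelled library and 1659 in the dKO-labelled library, and *Nr4a2* had 183 and 306, so both go against the label. By class, the dKO over WT fold of *Nr4a1* was 2.14 in Treg, 2.1 in pDC, 1.03 in low-ribosomal and 0.84 in myeloid cells. The counts do not resolve the floxed exons, and 245 cell barcodes occur in both libraries. Cells were put into 8 classes by UMIs of marker genes. T cells with *Cd3* UMIs were divided into Treg (*Foxp3*; 423 cells, 4.01%, in the WT-labelled library and 3182, 18.2%, in the dKO-labelled library), effector (*Ifng*, *Il17a* or *Il17f*; 1654 and 1081), naive-like (1898 and 1144), other T (3088 and 6109), cycling (571 and 456) and low-ribosomal cells, with under 6% of UMIs from cytosolic ribosomal protein genes (141 and 139). Although the sort was for CD4+ T cells, 1297 and 3201 cells had plasmacytoid dendritic cell (pDC) markers and 189 and 259 had myeloid markers. In these pDC the summed *Cd3* level was 48.4 and 22 CPM, against 2308 to 3904 CPM in Treg, effector, naive-like and other T cells. Cells with markers of more than 1 lineage (497 and 1179) and of none (798 and 712) were set aside. Intervals in parentheses are exact 95% intervals for counting error and do not cover differences between mice.

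The summed level of the members differed between the classes. It was highest in cycling cells, at 23928 CPM (23733 to 24125) in the WT-labelled library and 27999 CPM (27791 to 28209) in the dKO-labelled library, and lowest in low-ribosomal cells, at 4457 CPM (4196 to 4730) and 3912 CPM (3577 to 4271). Among the other T cell classes it ran from 16381 CPM in naive-like cells to 19159 CPM in other T cells in the WT-labelled library, and from 18574 to 20786 CPM in the dKO-labelled library. Treg and effector cells were neighbours whose intervals overlap in both libraries, at 17573 and 17533 CPM in the WT-labelled library and at 20614 and 20740 CPM in the dKO-labelled library. The pDC had 20102 and 21425 CPM and the myeloid cells 19679 and 20797 CPM. These neighbours overlap in their intervals in the WT-labelled library but not in the other.

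The 13 mt genes did not follow the members. Their sum was low where the members were high, with 10656 and 10477 CPM in cycling cells, and it reached 16367 and 14642 CPM in low-ribosomal cells. The ratio of member to mt UMIs was 2.25 and 2.67 in cycling cells, between 1.06 and 1.9 in the Treg, effector, naive-like and other T cells, and 0.272 and 0.267 in low-ribosomal cells. In pDC both sums were high and the ratio was 1.14 and 1.29. Cells at or above 5% mt UMIs had been removed, which bounds the mt sum from above. With those cells kept, the mt sum of low-ribosomal cells over resting T cells moved from 0.31 to 0.49 on the log2 scale as the mean of both libraries.

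**Figure D1:**
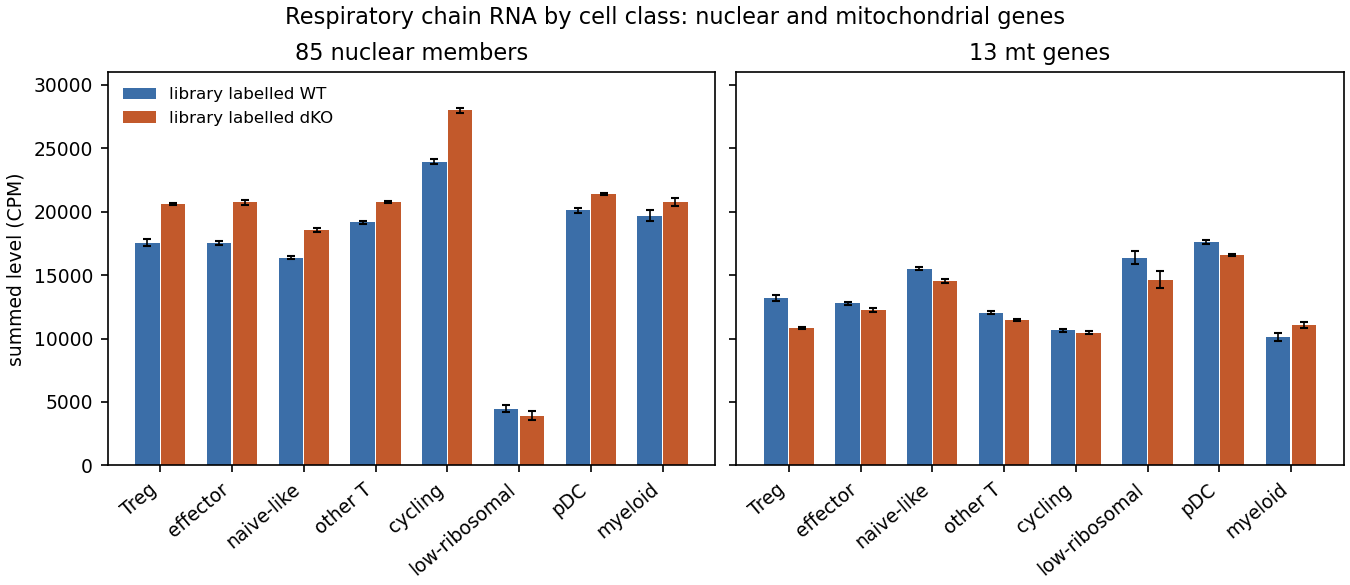
Summed level of the 85 members (left) and of the 13 mt genes (right) in CPM, by cell class and library; bars are 1 library each and the lines are exact 95% Poisson intervals. Cycling cells are highest for the members, at 23928 and 27999 CPM, and low-ribosomal cells lowest, at 4457 and 3912 CPM, while the mt sum is between 10103 and 17601 CPM everywhere.

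To ask which members account for the differences between classes, UMIs were summed per class and library and each class was compared with the mean of the Treg, effector, naive-like and other T classes, here called resting T cells, by edgeR's quasi-likelihood test with the library as a term. The 2 libraries are the only replicates of a class, and they are of different genotypes. All 8 classes share 1 estimate of the spread, so the p-values of each contrast also rest on the classes outside it. In cycling cells 64 of 85 members rose and none fell, beside 17.5% of all 11494 genes tested that rose and 12.2% that fell. With no term for the library 39 rose, and with each cell thinned to 1000 UMIs 40 rose. In both of these none fell, while 3 fell without scaling beyond total UMIs and 3 by DESeq2. No share of all genes is given for these other settings. The median log2 fold change was 0.52 over the members and −0.05 over all genes. Fold changes from this fit use edgeR's TMM scaling and give the 4 resting classes equal weight. CPM and summed values given for resting T cells use total UMIs only and pool the UMIs of these classes, among which Treg gave 1067299 UMIs in the WT-labelled library and 6092590 in the dKO-labelled library. For the member sum in cycling, low-ribosomal, pDC and myeloid cells these give 0.48, −2.82, 0.26 and 0.32 with TMM and 0.44, −2.19, 0.12 and 0.09 without it (log2, mean of both libraries), so low-ribosomal and myeloid values differ most between the scales. With the library as a term, 29 of 37 members of complex I, 3 of 4 of complex II, 7 of 8 of complex III, 10 of 11 of complex IV and 13 of 17 of complex V rose. Of the 8 assembly factors of complex I, 2 rose.

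Among single members in cycling cells, *Cox5b*, a zinc-binding subunit of cytochrome c oxidase on the matrix side, had 706 and 796 CPM against 353 and 449 CPM in resting T cells of the libraries labelled WT and dKO. Its log2 fold change was 0.98 ± 0.10 (SE, adjusted p = 4.8e-07). *Cox5a*, another subunit on the matrix side, had 584 and 651 CPM against 313 and 347 CPM, with a log2 fold change of 0.97 ± 0.13 (adjusted p = 1.5e-05). *Sdhd*, a membrane anchor of succinate dehydrogenase, had 97.3 and 117 CPM against 55.5 and 63.8 CPM, a log2 fold change of 0.91 ± 0.12 (adjusted p = 1.7e-05). All 3 were higher in cycling cells of both libraries, with no overlap between the libraries' cycling and resting values. Next in order were *Atp5g3* (0.90), 1 of 3 genes for the same c subunit of the ATP synthase ring, and *Cox6a1* (0.89). Of the other c subunit genes, *Atp5g2* rose by 0.51 and *Atp5g1* by 0.32.

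The anchors and the iron-sulfur subunit of complex II rose (*Sdhb* by 0.78, *Sdhc* by 0.58), while *Sdha*, the flavoprotein with the succinate site, had a log2 fold change of 0.07 ± 0.12 (adjusted p = 0.68). In complex I, the electron-accepting *Ndufv1* rose by 0.59, the large iron-sulfur subunit *Ndufs1* by 0.48, *Ndufab1*, the mitochondrial acyl carrier protein, by 0.70 and *Ndufa4*, first assigned to complex I and since found in complex IV, by 0.78. By its symbol *Ndufa4* is counted with complex I throughout. In complex III the core protein *Uqcrc1* rose by 0.58, the Rieske protein *Uqcrfs1* by 0.60 and *Uqcrb* by 0.33. The hinge protein *Uqcrh* had a log2 fold change of −0.25 (adjusted p = 0.1), with 539 and 562 CPM in cycling cells against 660 and 674 CPM. *Cox7a2l*, which helps join complexes III and IV into supercomplexes, had −0.36 (adjusted p = 0.052), with 185 and 174 CPM in cycling cells, against 254 to 360 CPM over the 4 resting classes in the WT-labelled library and 163 to 269 CPM in the dKO-labelled library. Of ATP synthase, *Atp5a1* (alpha) and *Atp5b* (beta), which form the catalytic head, rose by 0.50 and 0.67. In the central stalk *Atp5c1* (gamma) rose by 0.51, whereas *Atp5e* (epsilon) had 0.28 (adjusted p = 0.085).

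Other mitochondrial lists moved with the members in cycling cells: 47 of 78 mitochondrial ribosomal protein genes and 8 of 13 genes of the TCA cycle rose, and 1 ribosomal gene fell. Cytochrome c (*Cycs*) rose by 0.77 (adjusted p = 0.00021). Of 13 mt genes none rose and 3 fell (*mt-Nd2*, *mt-Nd4* and *mt-Nd4l*, by 0.42, 0.37 and 0.38). Of the assembly factors outside the naming rule 6 of 31 rose and 1 fell, of 11 regulators 3 rose and 1 fell, and of 16 glycolytic genes 7 rose. Without TMM scaling the glycolytic sum was above resting T cells by 0.60 and 0.57 (log2, libraries labelled WT and dKO). The member sum was above them by 0.43 and 0.45. The median over single genes, with TMM scaling, was 0.38 for glycolysis and 0.52 for the members. Members with and without the NRF1-type letters in their promoter window had medians of 0.60 and 0.52, and 15 of 21 and 35 of 50 rose. For the ETS type these were 0.56 and 0.52, with 11 of 19 and 39 of 52, and for the YY1 type 0.29 and 0.56, with 2 of 5 and 48 of 66. Cycling cells had more UMIs per cell, with medians of 3404 and 4913, and the summed difference was 0.43 on the log2 scale after each cell was thinned to 1000 UMIs and gated again, against 0.44 before (1929 and 3071 cells of the libraries labelled WT and dKO were too shallow to thin).

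**Figure D2:**
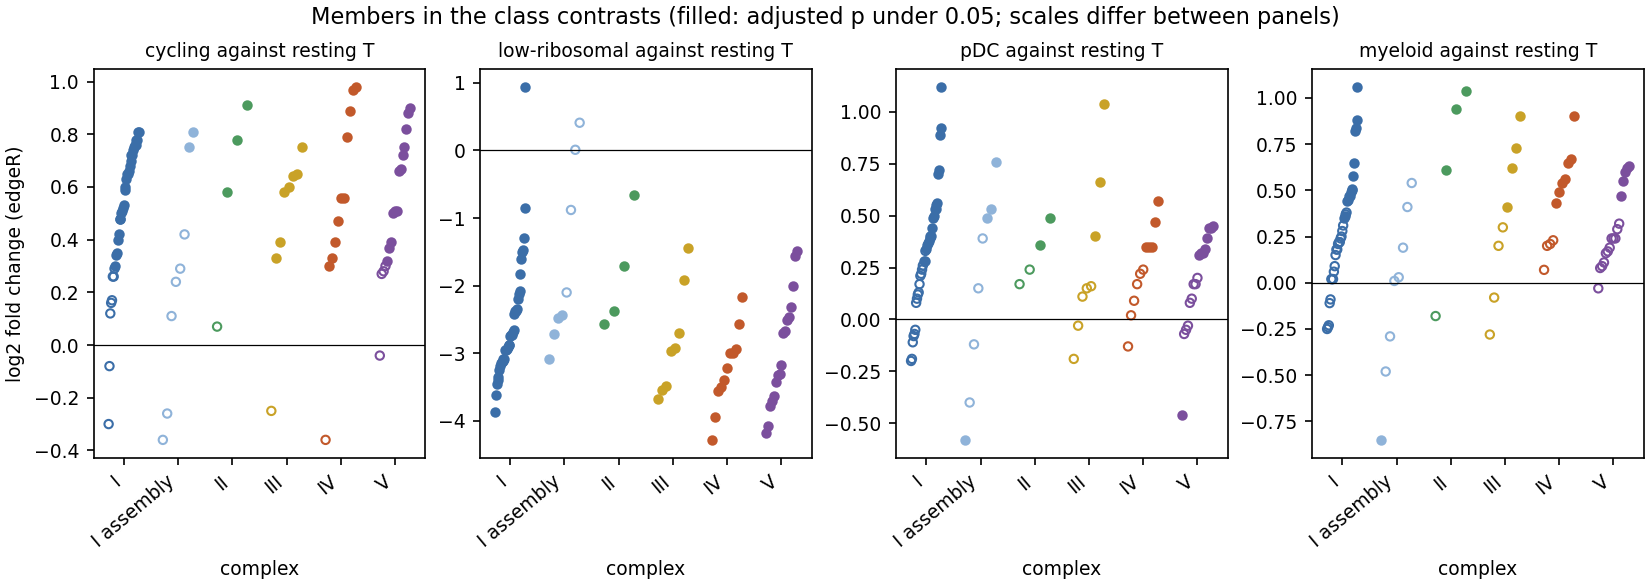
Log2 fold change of each member in 4 class contrasts against resting T cells, grouped by complex; 1 point is 1 member, filled where the adjusted p of edgeR's test is under 0.05, and the vertical scales differ between panels. Complexes I to V lie mostly above 0 in cycling cells (median 0.52) and below 0 in low-ribosomal cells (median −2.75), and the assembly factors of complex I spread to both sides in pDC and myeloid cells.

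In low-ribosomal cells, gated on at least 1 *Cd3* UMI, 80 of 85 members fell and 1 rose, beside 19.8% of all genes that fell and 15.6% that rose. The median log2 fold change was −2.75 over the members and −0.26 over all genes. All members of complexes II to V fell, as did 36 of 37 of complex I and 4 of 8 assembly factors. *Cox6b1*, a subunit on the intermembrane side of complex IV, had 24.6 and 39 CPM against 357 and 415 CPM in resting T cells, a log2 fold change of −4.28 ± 0.24 (adjusted p = 4.1e-10). *Atp5mpl*, a small membrane subunit of ATP synthase, had 24.6 and 15.6 CPM against 272 and 229 CPM, a log2 fold change of −4.18. *Atp5e* had 77.9 and 54.7 CPM against 737 and 830 CPM, a log2 fold change of −4.08. Each of these lay below the resting level in both libraries without overlap.

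The 1 member that rose in low-ribosomal cells was *Ndufs1*, with 90.2 and 54.7 CPM against 25.3 and 28.4 CPM (log2 fold change 0.94 ± 0.28, adjusted p = 0.015). With each cell thinned to 1000 UMIs no member was called higher, and *Ndufs1* was at 0.84 (adjusted p = 0.34). Within the dKO-labelled library alone its log2 ratio was 0.94 with an interval from −0.38 to 2.00. By CPM 2 further members were not lower in both libraries although the fit called them lower. *Sdha* had 94.3 and 102 CPM against 99.8 and 100 CPM (log2 fold change −0.66, adjusted p = 0.02), and *Ndufs4*, an accessory subunit of complex I, had 90.2 and 164 CPM against 134 and 142 CPM (−0.85, adjusted p = 0.0018). Without TMM scaling 77 members fell and 1 rose. Across the 85 genes, log10 of the locus span correlated with the log2 fold change at Pearson r = 0.59 and Spearman rho = 0.45, and across 11491 genes at 0.43 and 0.56. In the 22 members with the shortest loci (1205 to 4375 bases) the median was −3.13, and in the 21 with the longest (13081 to 155909 bases) it was −2.00. Between these the order was not steady, with −2.51 at 4518 to 7456 bases and −2.87 at 7674 to 12991 bases. These correlations are across genes of the same libraries and are descriptions. Counting of UMIs in introns is not given in the sources used here.

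Of the other lists in low-ribosomal cells, medians were −2.22 for mitochondrial ribosomal protein genes (62 of 78 fell), −0.87 for the TCA cycle (6 of 13) and −1.23 for glycolysis (9 of 16). Assembly factors outside the naming rule had a median of −1.15 (12 of 31 fell). Of 11 regulators 3 rose and 1 fell, with a median of 0.42. By share of UMIs, without TMM scaling, the TCA cycle sum was at 0.07 and −0.15 (log2, libraries labelled WT and dKO), with intervals that included 0. Cytosolic ribosomal protein genes, which the gate used, had a median of −4.04. The mt genes also depended on the scaling. Their share of UMIs was higher in low-ribosomal than in resting T cells by 0.29 and 0.32 (log2, libraries labelled WT and dKO), but with edgeR's TMM scaling 6 of 13 fell and none rose. In the dKO-labelled library the low-ribosomal cells also held 8793 CPM of the neutrophil markers *S100a8* and *S100a9* together, against 0 in the WT-labelled library. Their summed *Cd3* level was 1033 CPM in the WT-labelled library and 1546 CPM in the dKO-labelled library. The cycling markers of low-ribosomal cells summed to 1775 and 882 CPM in the libraries labelled WT and dKO, against 36.2 to 87.1 CPM in the 4 resting classes. The part of the neutrophil and cycling markers in the result was not tested.

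In pDC, which secrete type I interferon and are a lineage apart from T cells, 42 of 85 members rose and 2 fell, beside 29.0% of all genes that rose and 30.7% that fell. The median log2 fold change was 0.28. Without scaling beyond total UMIs 26 rose and 4 fell, and with no term for the library 15 rose and 1 fell. No share of all genes is given for these 2 settings, so these counts do not show a rise particular to the members. The sum over members was 0.18 (log2) above resting T cells in the WT-labelled library and 0.07 in the dKO-labelled library. Complex I had 21 of its 37 members up, complex IV 5 of 11 and complex V 8 of 17.

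The 3 members with the highest fold change in pDC belong to complexes I and III. *Ndufc1* of complex I had 154 and 160 CPM against 70 and 91 CPM, a log2 fold change of 1.12 ± 0.11 (adjusted p = 1.6e-07). *Uqcr11*, a small subunit of complex III, had 229 and 245 CPM against 111 and 155 CPM, a log2 fold change of 1.04 ± 0.11 (adjusted p = 2.7e-07). *Ndufs8*, an iron-sulfur subunit of complex I, had 131 and 151 CPM against 70.6 and 94.4 CPM (0.92 ± 0.11, adjusted p = 9e-07). The 2 members that fell were *Atp5md* (255 and 266 CPM against 416 and 384 CPM, log2 fold change −0.46, adjusted p = 0.0017) and the assembly factor *Ndufaf5* (7.17 and 11.8 CPM against 16.3 and 17.1 CPM, −0.58, adjusted p = 0.041). *Cox4i1* rose by 0.57, *Cox8a* by 0.47, *Ndufaf8* by 0.53, *Sdhb* by 0.49 and *Atp5g1* and *Atp5g2* by 0.44 and 0.45.

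*Cox6a2*, the striated-muscle form of subunit 6a that the rule leaves out, was, within the 8 classes, seen almost only in pDC, at 2245 and 1254 CPM, against 0 to 9.49 CPM in the other 7 classes. Cells set aside as mixed or of no class are not part of this. Its ubiquitous partner *Cox6a1* was at 317 and 383 CPM in pDC, a rise of 0.35 over resting T cells (adjusted p = 0.024). The mt genes rose in pDC as well: 11 of 13 were higher and 1, *mt-Nd6*, was lower, with the largest fold change in *mt-Nd4*, at 974 and 856 CPM (log2 fold change 1.14, adjusted p = 1.1e-07). Glycolytic genes went the other way, with 11 of 16 lower and 2 higher and a median of −0.75.

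In myeloid cells 34 members rose and 1 fell, beside 19.6% and 19.4% of all genes, with a median of 0.28. Without scaling beyond total UMIs 19 rose and 6 fell, with no term for the library 21 rose and 1 fell, and with each cell thinned to 1000 UMIs 14 rose and 0 fell. No share of all genes is given for these settings. Without the scaling the member sum was 0.15 above resting T cells in the WT-labelled library and 0.02 in the dKO-labelled library. *Ndufc2* of the complex I membrane arm had 171 and 257 CPM against 103 and 150 CPM (log2 fold change 1.06 ± 0.20, adjusted p = 0.00031). Both membrane anchors of complex II rose, *Sdhd* from 55.5 and 63.8 CPM to 92.5 and 111 CPM (1.04 ± 0.16, adjusted p = 4.1e-05) and *Sdhc* from 39.6 and 46.3 CPM to 68.8 and 69.6 CPM (0.94 ± 0.16, adjusted p = 0.00015). The assembly factor *Ndufaf4* fell, from 29.6 and 27.4 CPM to 11.9 and 14.2 CPM (−0.85 ± 0.29, adjusted p = 0.03). *Sdha* was at −0.18 (adjusted p = 0.47). None of the 13 mt genes passed the test (none at an unadjusted p under 0.05, by edgeR), while 10 of 16 glycolytic genes rose and 1 fell. Without TMM scaling the mt sum was below resting T cells in both libraries. Its log2 ratio was −0.41 (−0.45 to −0.37) in the WT-labelled library and −0.08 (−0.11 to −0.05) in the dKO-labelled library. The myeloid cells of the dKO-labelled library also held 2760 CPM of *S100a8* and *S100a9*, against 19 CPM in the WT-labelled library, whose part was not tested.

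Treg and naive-like cells were each contrasted with effector cells, and other T cells were in neither contrast. For Treg against effector cells edgeR called 0 of 85 members, and 0 had an unadjusted p under 0.05, beside 1.83% of all genes higher and 1.39% lower. For naive-like against effector cells edgeR called 0 and 3 had an unadjusted p under 0.05, beside 1.64% and 2.17%. DESeq2 also called 0 in both, and with each cell thinned to 1000 UMIs edgeR called 1 member higher and 1 lower in naive-like cells. The summed level of Treg over effector cells was 0.00 (log2, −0.02 to 0.03) in the WT-labelled library and −0.01 (−0.02 to 0.01) in the dKO-labelled library. That of naive-like over effector cells was −0.10 and −0.16, and with TMM scaling it was −0.02. The mt sum was higher in naive-like than in effector cells by 0.28 and 0.25, with 12 of 13 mt genes above 0 and none past the adjusted threshold by edgeR (10 had an unadjusted p under 0.05).

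Between the libraries, the member sum was higher in the dKO-labelled library in 7 of 8 classes. The log2 ratio of dKO over WT was 0.24 (0.22 to 0.26) in effector, 0.23 (0.21 to 0.25) in Treg, 0.23 (0.21 to 0.24) in cycling, 0.18 (0.16 to 0.20) in naive-like, 0.12 (0.11 to 0.13) in other T, 0.09 (0.08 to 0.11) in pDC and 0.08 (0.04 to 0.12) in myeloid cells. In low-ribosomal cells it was −0.19 (−0.34 to −0.03), and the direction turned to 0.07 when each cell was thinned to 1000 UMIs. Since 1 library stands for each genotype, these ratios also hold every difference between the 2 preparations. Cells of a class held different numbers of UMIs in the 2 libraries, with medians of 1477 and 2898 in pDC, 1641 and 3382 in myeloid and 3404 and 4913 in cycling cells. In the other 5 classes the WT-labelled library was the deeper, with 2022 and 1545 in Treg, 1938 and 1561 in effector, 2047.5 and 1665.5 in naive-like, 1387 and 1210 in other T and 1447 and 798 in low-ribosomal cells. Taken as the mean of each cell's own share, the ratio was 0.08 in cycling, −0.06 in pDC and −0.03 in myeloid cells, and in Treg, effector, naive-like and other T cells it was 0.16, 0.21, 0.15 and 0.06. After thinning each cell to 1000 UMIs it was 0.06 in cycling, 0.06 in pDC and −0.01 in myeloid cells, against 0.18 and 0.21 in Treg and effector cells. With TMM scaling the ratio was instead higher in Treg, effector, other T, cycling, pDC (0.15) and myeloid cells. The neutrophil markers *S100a8* and *S100a9* summed to 18.7 and 238 CPM in Treg, 2.99 and 159 CPM in effector and 0 and 281 CPM in cycling cells of the libraries labelled WT and dKO, and their part was not tested. The classes also differed in their gate markers between the libraries. Effector cells had 922 and 741 CPM of *Ifng*, 317 and 1564 CPM of *Il17a* and 71.1 and 337 CPM of *Il17f*. The 7 markers of the naive-like gate summed to 744 and 250 CPM in Treg, 749 and 497 CPM in effector and 360 and 204 CPM in other T cells, and the part of these differences in the ratios was not tested.

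By complex, the ratio in Treg was 0.33 for complex I, 0.46 for its assembly factors, 0.24 for complex II, 0.10 for complex III, 0.23 for complex IV and 0.18 for complex V. The complex I sum includes *Ndufa4*. Complex I was above complexes III and V in each of the 4 resting T cell classes: in effector cells these 3 were 0.31, 0.19 and 0.19, in naive-like cells 0.26, 0.11 and 0.13, and in other T cells 0.20, 0.04 and 0.07. The mitochondrial ribosomal protein genes were at 0.18, 0.17, 0.09 and 0.12 in Treg, effector, naive-like and other T cells. The TCA cycle was between −0.04 and −0.02 in the same 4 classes.

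Counted by member, 34 of the 83 with at least 100 UMIs in Treg were higher in the dKO-labelled library by over 25% and 1 was lower by over 20% (the same fold), where 24.2% and 19.0% of all 7117 genes were. In effector cells 27 of 82 were higher and 1 lower, beside 14.5% and 23.3%. In naive-like cells 20 of 81 were higher and 2 lower, beside 15.3% and 14.8%, and in other T cells 21 of 85 were higher and 3 lower, beside 20.0% and 18.5%. In cycling cells 27 of 82 were higher and none lower, beside 15.6% and 21.6%. In pDC 4 of 84 were higher and 1 lower, beside 13.8% and 15.6%, and in myeloid cells 7 of 71 were higher and 1 lower, beside 21.5% and 14.9%. With TMM scaling 12 in pDC and 14 in myeloid cells were higher and 0 lower in both, with no share of all genes given for that scaling. No member reached 100 UMIs in low-ribosomal cells, where 23.1% and 35.4% of 808 genes were past these bounds. Of the 71 members with a value in 7 classes, 32 were above 0 in all 7 and 1, *Cox7a2l*, was below 0 in all 7. The 7 ratios of a member compare the same 2 libraries, so they are not independent. The share of all genes with 1 sign in all 7 classes is not given here.

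**Figure D3:**
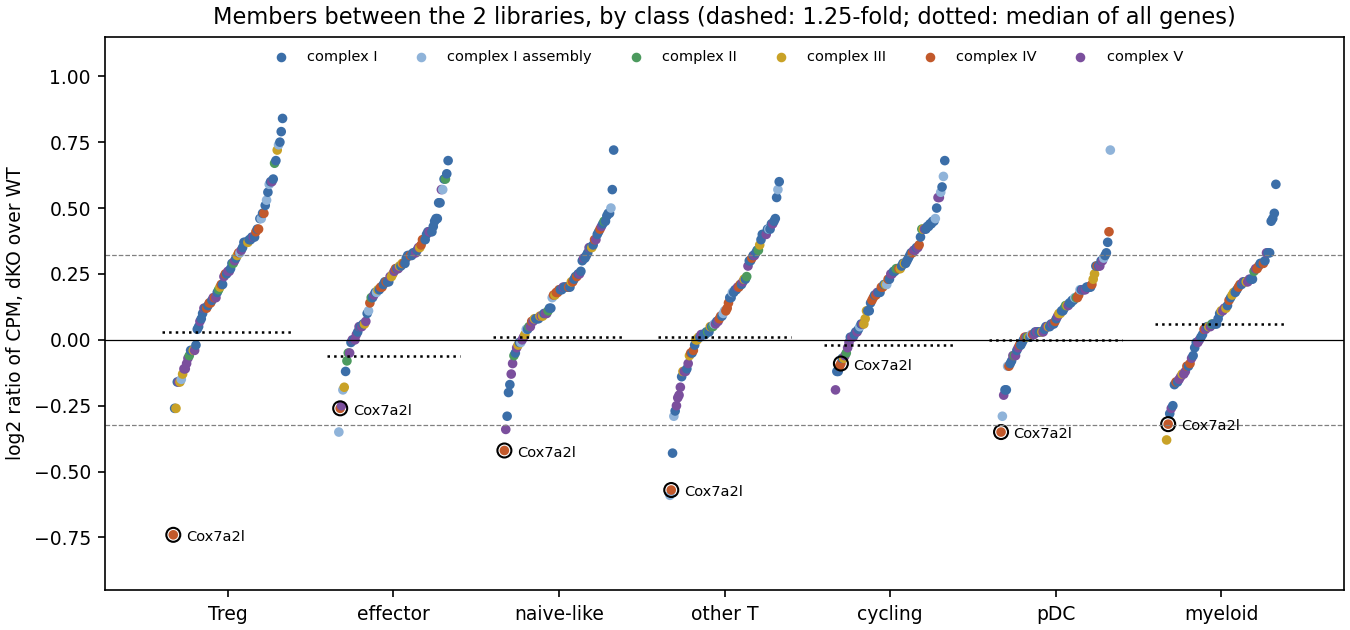
Log2 ratio of CPM, dKO-labelled over WT-labelled library, of each member with at least 100 UMIs in the class, sorted within 7 classes and coloured by complex; dashed lines mark 25% higher and 20% lower and dotted lines the median of all genes. Most points lie above 0, with medians of 0.26 in Treg and 0.25 in effector cells against 0.07 in pDC, and *Cox7a2l* (ringed) lies below 0 in every class shown.

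The order given here is among members with at least 100 UMIs in the class. The members farthest above 0 in Treg were *Ndufc2* (95.6 CPM in the WT-labelled library and 171 in the dKO-labelled library, log2 ratio 0.84), *Ndufb8* (103 and 179, 0.79) and *Ndufb4* (85.3 and 143, 0.75), whose intervals started at 0.55, 0.51 and 0.44. In effector cells they were *Ndufa4* (261 and 419 CPM, 0.68), *Ndufa11* (122 and 189, 0.63) and *Ndufs5* (85.1 and 130, 0.61). *Ndufb8* led in naive-like cells (90.1 and 149 CPM, 0.72), followed by *Ndufb7* (0.57) and *Ndufaf8* (0.50), and *Ndufa11*, *Ndufaf8* and *Ndufb4* led in other T cells (0.60, 0.57 and 0.54). Cycling cells had *Ndufab1* (126 and 201 CPM, 0.68), *Ndufaf5* (0.62, interval 0.03 to 1.23) and *Ndufa11* (0.58) at the top. In pDC *Ndufaf5* (0.72, 0.03 to 1.49), *Cox5a* (0.41) and *Ndufb9* (0.37) were highest, and in myeloid cells *Ndufc2* (0.59), *Ndufa4* (0.48) and *Ndufb9* (0.46).

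Across the 7 classes *Ndufa4* was higher in the dKO-labelled library in each, at log2 ratios of 0.33 to 0.68, and its interval excluded 0 in all 7. *Ndufb9* did the same at 0.37 to 0.68. *Atp5g3* ranged from 0.23 to 0.60, with 473 and 717 CPM in Treg, 470 and 699 CPM in effector and 842 and 1223 CPM in cycling cells. The interval of *Atp5g3* excluded 0 except in myeloid cells, where it started at 0. Of the subunits that form the catalytic head of ATP synthase, *Atp5b* was between −0.14 and 0.06 in the 7 classes and its interval excluded 0 in other T cells only (−0.12, −0.19 to −0.04). *Atp5a1* had 308 and 286 CPM in Treg (−0.28 to 0.07) and 277 and 276 CPM in effector cells (−0.15 to 0.15).

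*Cox7a2l* had 272 CPM in Treg of the WT-labelled library and 163 in the dKO-labelled library (log2 ratio −0.74, −0.93 to −0.55). It had 254 and 212 CPM in effector cells (−0.26, −0.43 to −0.09), 360 and 269 CPM in naive-like cells (−0.42, −0.56 to −0.28) and 255 and 172 CPM in other T cells (−0.57, −0.68 to −0.46). In cycling cells it had 185 and 174 CPM (−0.09, −0.29 to 0.10), in pDC 224 and 175 CPM (−0.35, −0.49 to −0.22) and in myeloid cells 237 and 190 CPM (−0.32, −0.69 to 0.05). The library labelled WT was the higher in each, and the intervals included 0 in cycling and myeloid cells. Its paralog *Cox7a2*, the subunit proper, went the other way in Treg (245 and 308 CPM) and effector cells (263 and 342 CPM). Also low were *Atp5mpl* (265 and 223 CPM in effector, −0.25; 283 and 224 in naive-like, −0.34; 338 and 296 in cycling, −0.19), *Ndufa10* (−0.26 in Treg, −0.29 in naive-like, −0.43 in other T) and *Uqcrfs1* in Treg (182 and 152 CPM, −0.26). The interval of *Ndufa10* excluded 0 in other T cells (−0.61 to −0.25) and included it in Treg (−0.60 to 0.09), and that of *Uqcrfs1* ended at −0.02. The assembly factor *Ndufaf6* was at −0.59 (−1.12 to −0.05) in other T cells on 123 UMIs. The other members lowest in a class, among those with at least 100 UMIs in it, had intervals that included 0: *Ndufaf2* in effector cells (−0.35), *Ndufv1* and *Ndufa6* in cycling cells (both −0.12), *Ndufaf6* (−0.29) and *Atp5k* (−0.21) in pDC, and *Uqcrc2* (−0.38) and *Ndufa3* (−0.28) in myeloid cells.

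**Figure D4:**
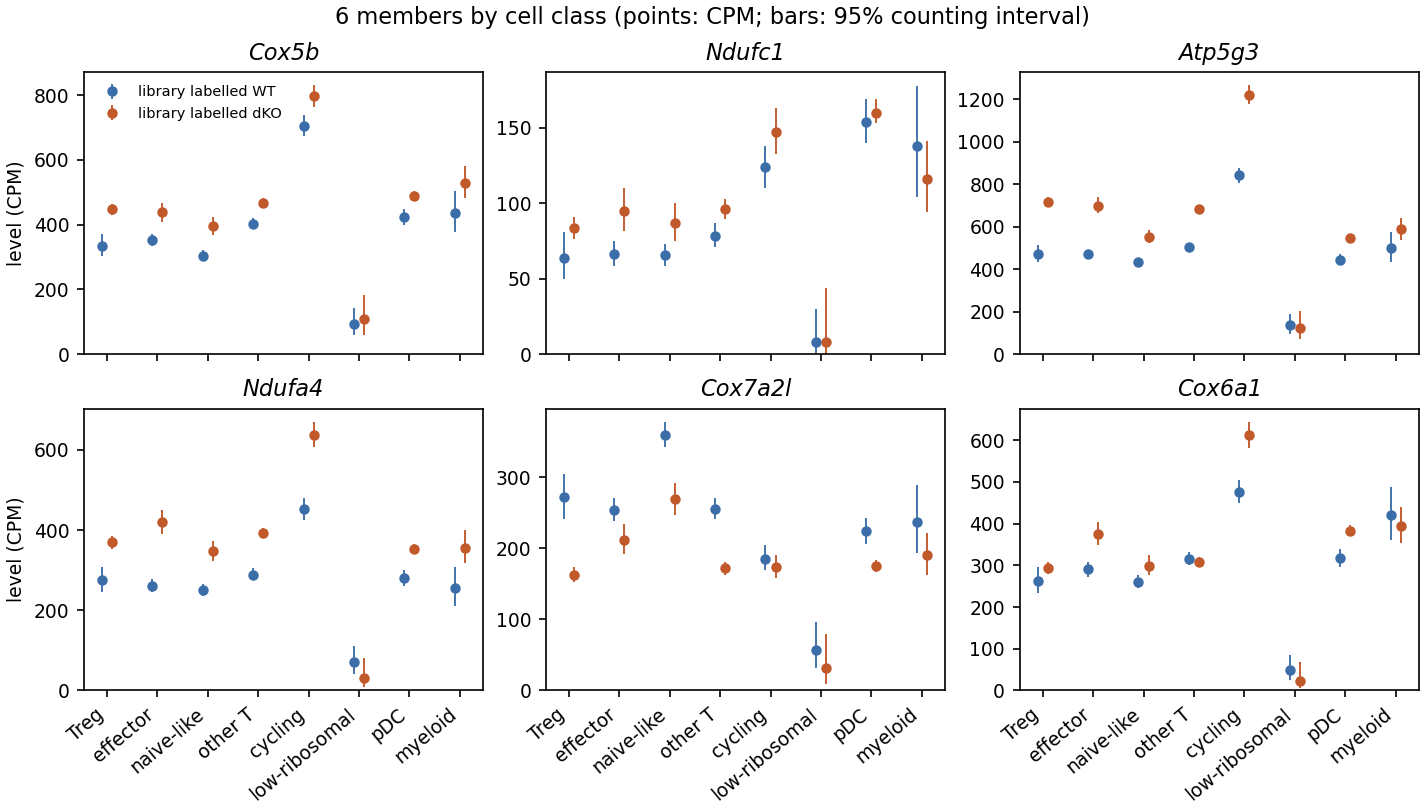
Level in CPM of 6 members in the 8 classes of the WT-labelled library and the dKO-labelled library; points are 1 library each and bars are exact 95% Poisson intervals. *Cox5b* peaks in cycling cells at 706 and 796 CPM, *Ndufc1* reaches 154 and 160 CPM in pDC, and *Cox7a2l* is higher in the WT-labelled library in each class.

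The 13 mt genes did not move together between the libraries. The sum was lower in the dKO-labelled library in 7 classes, most in Treg, where it was 13199 and 10834 CPM (log2 ratio −0.28, −0.31 to −0.26), and higher in myeloid cells (0.13). *mt-Atp6* was lower in all 8 classes, by 0.20 to 0.67, and *mt-Co1* and *mt-Co3* in 7 of 8. In contrast *mt-Nd1* was higher in all 8 (0.31 to 0.68), as was *mt-Nd4l* (0.43 to 0.87). *mt-Atp8* was at 91.8 CPM in the WT-labelled library and 168 in the dKO-labelled library in Treg, 115 and 222 CPM in effector and 107 and 203 CPM in pDC, and was higher by 0.83 to 0.97 in the 7 classes with at least 100 UMIs. *mt-Nd6*, which lies on the opposite strand to the other mt genes here, had 34.7 and 68 CPM in Treg and 37.9 and 74.4 CPM in effector cells (both 0.97). The reading frames of *mt-Atp8* and *mt-Atp6* overlap, as do those of *mt-Nd4l* and *mt-Nd4*, so UMIs of these pairs may be split or dropped where they overlap. In pDC and myeloid cells *mt-Nd1*, *mt-Nd4l* and *mt-Atp8* were likewise above 0 (0.68, 0.68 and 0.92 in pDC) and *mt-Atp6* below it (−0.37 and −0.20).

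**Figure D5:**
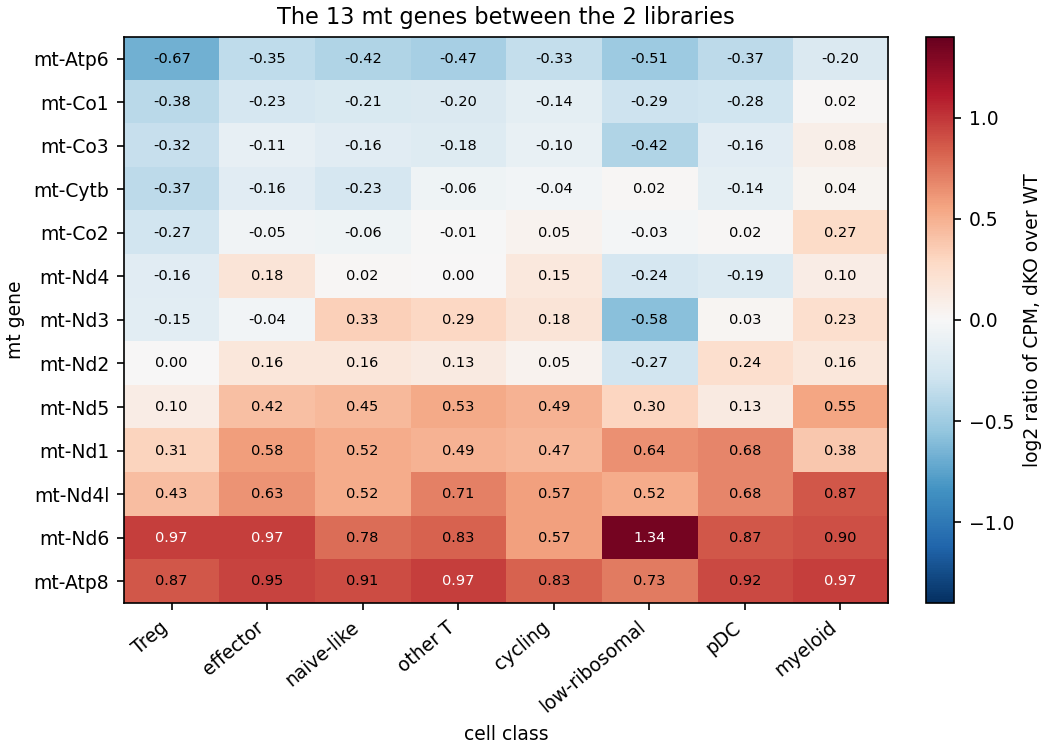
Log2 ratio of CPM, dKO-labelled over WT-labelled library, for each of the 13 mt genes (rows, sorted by their median) in the 8 classes (columns); red is higher and blue lower in the dKO-labelled library. *mt-Atp6* is below 0 in every class and *mt-Nd5*, *mt-Nd1*, *mt-Nd4l*, *mt-Nd6* and *mt-Atp8* are above 0 in every class.

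Within a class the member level varied between cells by more than counting alone gives. With each cell thinned to 1000 UMIs and gated again, Treg of the WT-labelled library had a median of 18 member UMIs (quartiles 14 and 22) and those of the dKO-labelled library 20 (16 and 24). Cycling cells had medians of 24 and 26 and low-ribosomal cells of 4 and 3. The variance over the mean of these counts, which is near 1 for counting noise, was between 1.97 and 3.22 in the classes of the WT-labelled library. It was between 1.47 and 1.8 in the dKO-labelled library apart from myeloid cells (2.95) and low-ribosomal cells (5.18), so the spread between cells was wider in the WT-labelled library in 7 of 8 classes by value, with myeloid cells close (3.02 and 2.95). Across cells, member UMIs correlated with mt UMIs at r between −0.46 (cycling, n = 328) and −0.21 (effector, n = 999) in 7 classes of the WT-labelled library, and between −0.17 (pDC, n = 3490) and −0.09 (effector, n = 744) in those of the dKO-labelled library. In low-ribosomal cells r was 0.03 (n = 81) and 0.22 (n = 31). These correlations share a fixed total per cell, which by itself lowers them.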

How the data were processed

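Cells of the 2 mice of a group were pooled by the authors, sorted as hepatic CD4 T cells and captured with a 10x 5′ v2 kit. The deposited tables hold UMI counts per gene and cell, made by the authors with Cell Ranger (7.0.1 per the file headers) on mm10; whether intronic UMIs were counted is not given in the sources used here. Cells with more than 200 genes and under 5% mt UMIs were kept. A pDC or myeloid cell had at least 3 UMIs of at least 2 markers, a T cell at least 1 *Cd3* UMI. Mixed cells, which include doublets, were set aside, and no doublet caller was run.

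CPM was computed from UMIs summed per class and library, with exact 95% Poisson intervals. Ratios have exact conditional binomial intervals. Both cover counting error only. Genes with at least 100 UMIs over the 16 sums were tested with edgeR 4.0.16 (TMM, quasi-likelihood F-test, Benjamini-Hochberg over all genes, threshold 0.05), with class and library as terms, and DESeq2 1.42.0 was an alternative. The fit was tested on simulated data. P-values measure spread between 2 libraries that differ in genotype. Genotypes were compared without a test, by members over 25% higher or 20% lower.

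Named members were the 3 highest and 3 lowest of those called in each contrast, the 3 highest and lowest library ratios per class (at least 100 UMIs in the class), and a fixed set with known roles. *Cycs* and *Cox6a2* were added. Other lists were mt, TCA cycle, glycolytic, mitochondrial and cytosolic ribosomal protein genes, assembly factors and regulators. Members and lists were chosen with earlier results of these data known. Python 3.11.15 and R 4.3.3 were used.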

Additional observations from a re-analysis of the deposited data

Results flagged for a closer look

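Among the named members, 3 had log2 ratios on opposite sides of 0 in the 2 libraries under the same class contrast with both intervals excluding 0, and the difference between libraries was not tested. *Cox6c* in pDC against resting T cells had a log2 ratio of 0.14 in the WT-labelled library and −0.09 in the dKO-labelled library. *Atp5e* in myeloid cells against resting T cells had 0.20 and −0.23. *Uqcrfs1* in Treg against effector cells had 0.27 and −0.22. Counted without regard to the intervals, the sign was the same in both libraries for 80 of 85 members in cycling, 76 in low-ribosomal, 61 in pDC and 57 in myeloid cells, 49 for Treg and 69 for naive-like against effector cells. Members at 0 UMIs in a library of low-ribosomal cells have no log2 ratio there and are not in the 76. Some of them, such as *Ndufc2* (41 CPM in the WT-labelled library and 0 in the dKO-labelled library), lay below resting T cells in both libraries. The pseudogene symbol *Ndufb1-ps*, which the naming rule leaves out, held 9023 UMIs over both tables.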

How the results depend on the processing

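The counts in this section are of members only, and the shares of all genes under the same settings are not given. Without the library term (no replicate block), members called higher were 39 in cycling, 15 in pDC and 21 in myeloid cells, and 1 was lower in pDC. Thinned to 1000 UMIs, they were 40 in cycling, 0 in low-ribosomal and 14 in myeloid cells, 0 fell in myeloid cells, and naive-like against effector cells gave 1 higher and 1 lower. Without scaling, 3 members fell in cycling cells, 26 rose and 4 fell in pDC, and 19 rose and 6 fell in myeloid cells. DESeq2 gave 3 lower in cycling, 1 in pDC and 0 in myeloid cells. In cycling cells 1 fell with no mt limit, 1 without cells with 2 TRB chains and 2 with 1 cell per clonotype. In pDC 1 fell without cells with 2 TRB chains and 1 with at least 2 UMIs in T cell gates, and in myeloid cells 2 fell with a minimum of 10 UMIs.

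With TMM scaling the member sum was 0.48 in cycling, −2.82 in low-ribosomal, 0.26 in pDC and 0.32 in myeloid cells, −0.04 for Treg and −0.02 for naive-like against effector cells; thinned, the last 2 were −0.02 and −0.19. Leaving out either library gave 0.43 to 0.45, −2.39 to −1.99, 0.07 to 0.18, 0.02 to 0.15, −0.01 to 0.00 and −0.16 to −0.10; tests could not be made with 1 library. The mt sum of low-ribosomal cells was 0.49 with no mt limit.

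For dKO over WT, TMM scaling gave 0.29 in Treg, 0.30 in effector, 0.16 in other T, 0.28 in cycling, 0.15 in pDC and 0.14 in myeloid cells. Without cytosolic ribosomal protein genes Treg, other T and cycling cells were at 0.20, 0.09 and 0.27. The mean of each cell's share gave 0.16 in Treg, 0.21 in effector, 0.15 in naive-like, 0.06 in other T and 0.08 in cycling cells, and the direction turned in pDC (−0.06) and myeloid cells (−0.03). Thinned, Treg, effector, other T, cycling and pDC were at 0.18, 0.21, 0.13, 0.06 and 0.06, and the direction turned in low-ribosomal (0.07) and myeloid cells (−0.01). Past 1.5-fold lay 11 members in Treg, 4 in effector, 1 in naive-like, 1 in other T, 2 in cycling, 1 in pDC and 1 in myeloid cells above, and 1 in other T and 0 in effector, naive-like, pDC and myeloid cells below. TMM scaling put 12 in pDC and 14 in myeloid cells over 25% higher and 0 in effector, pDC and myeloid cells over 20% lower. With a minimum of 10 UMIs, 3 were below in effector, 5 in naive-like and 25 in low-ribosomal cells with 19 above, and 12 above and 4 below in myeloid cells. The cause was not tested. The thinned library ratios, and those without shared barcodes, were chosen after seeing the data. Of named members' values under the alternatives, 303 kept their call and 9 lost it, with none reversed. Low-ribosomal cells held 243908 and 128052 UMIs in the libraries labelled WT and dKO, and no member reached 100 UMIs there. Whether depth or the low member level set this was not tested.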
